A study of Mus musculus with 16 samples.

Results

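Oxidative phosphorylation takes place in the inner mitochondrial membrane and is carried out by 5 protein complexes. Complexes I (NADH dehydrogenase), II (succinate dehydrogenase), III (cytochrome bc1) and IV (cytochrome c oxidase) pass electrons from food molecules to oxygen. Complexes I, III and IV pump protons as they do so, and complex V (ATP synthase) uses the proton gradient to make ATP. Most subunits are encoded in the nucleus, and neurons depend on this pathway for the ATP that drives ion pumps and synaptic transmission. Its nuclear-encoded subunits were followed here in mouse hippocampus between 2 postnatal ages and between mice with both copies and 1 copy of Mef2c, a transcription factor of muscle and neurons.

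Members were chosen by gene symbol, as the genes whose symbol in the deposited table begins with Nduf, Sdha, Sdhb, Sdhc, Sdhd, Uqcr, Cox4i, Cox5, Cox6, Cox7, Cox8 or Atp5. Each was represented by its probe of highest mean signal, and a member had to be detected above the negative control beads (detection p under 0.05) on at least 4 arrays. Of 73 such symbols 68 were kept, among 10940 symbols of the whole table that passed the same limit, with 29 in complex I, 3 in complex II, 6 in complex III, 15 in complex IV and 15 in complex V. Those left out were dim: Atp5k, Cox8c, Ndufab1 and Ndufs1 were detected on 0 arrays, and Cox4i2 on 2. A few of the 68 are not stable subunits. Ndufaf1 is an assembly factor of complex I, and Cox7a2l and Atp5s are related proteins. Symbols follow the table, so that Uqcr is the gene now named Uqcr11, and Ndufa4 was counted in complex IV, to which it is now assigned. No probe of the table carried the symbol Sdha, the flavoprotein of complex II.

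RNA of whole hippocampus was hybridised to 16 Illumina MouseRef-8 v2 beadchip arrays, 4 from each genotype (WT and Mef2c-het) at both postnatal day 1 (P1) and postnatal day 30 (P30). Mef2c-het mice, which the labels call KO, carry a conventional allele without exon 2 in all cells beside a normal allele, on a C57BL/6J background, and WT littermates were the controls. The labels do not say which arrays share a litter, so p-values measure the spread between these arrays. Values are log2 of quantile-normalized bead intensity, and no level was compared between genes because probes differ in brightness. Array pairs correlated with r of 0.986 to 0.997 within P1, 0.985 to 0.997 within P30 and 0.921 to 0.944 between the ages. Within each age the arrays formed a larger and a smaller cluster. The 5 arrays of the smaller clusters were WT P1 replicate 8, Mef2c-het P1 replicate 8, WT P30 replicates 6 and 7, and Mef2c-het P30 replicate 7. Their 5th percentile of signal was 140.0 to 161.4 units, against 105.8 to 130.8 on the other 11. By Xist and Y-linked transcripts all 8 arrays of P30 read as male, whereas 5 of 8 at P1 read as female. These were WT replicates 1, 4 and 5 and Mef2c-het replicates 1 and 4. In WT at P1 the male array, replicate 8, is also the array of the smaller cluster. Sex and cluster are therefore the same split in that group, and settings that use them are not separate checks there. Mef2c itself, read by 2 probes, overlapped between the genotypes at each age. At P30 the first probe read 8.56 to 8.92 in WT and 8.13 to 8.91 in Mef2c-het mice, a log2 difference of -0.29 ± 0.17 (SE, exact permutation p = 0.2), and the other gave -0.24 ± 0.19 (exact permutation p = 0.371). At P1 the differences were 0.067 and -0.0059. Whether either probe lies in the deleted exon is not known here, so they do not check the genotype.

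From P1 to P30 the members moved in both directions, with more rises than falls. In WT hippocampus 23 of 68 rose and 8 fell (limma across all 14777 probes, Benjamini-Hochberg adjusted p under 0.05), where 28% of all probes rose and 31.7% fell. In Mef2c-het hippocampus 26 rose and 5 fell, beside 26.9% and 31.4% of all probes. The median log2 change of the members was 0.080 in WT and 0.16 in Mef2c-het mice, and that of all probes -0.032 and -0.024. By the test 20 members rose and 5 fell in both genotypes. The 20 include Cox8b, which met the detection limit only through its P30 arrays. A further 3 (Ndufa8, Cox7c and Ndufa4) rose and 3 (Sdhb, Atp5g2 and Atp5l) fell in WT without passing in Mef2c-het mice, and 6 (Ndufa5, Ndufb3, Ndufb8, Ndufc1, Ndufv1 and Atp5d) rose in Mef2c-het mice without passing in WT. Passing in one genotype and not in the other is no test of a difference between them, which is given with the genotype comparison. The split between rises and falls moved with the normalization. Under cyclic loess it was 30 to 5 in WT and 35 to 3 in Mef2c-het mice, and under median scaling 12 to 6 and 18 to 3. Without the 5 arrays of the smaller clusters it was 17 to 7 and 28 to 3, and with the cluster as a block 25 to 8 and 35 to 5. The median change of the members was 0.12 in WT and 0.19 in Mef2c-het mice without those arrays. It was 0.11 and 0.16 with the cluster as a block. Once those 5 arrays are left out, all WT arrays of P1 read as female and all of P30 as male. Age and sex cannot be told apart in WT in that setting. Leaving out Mef2c-het P1 replicate 4 also gave 3 falls in Mef2c-het mice.

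**Figure D1:**
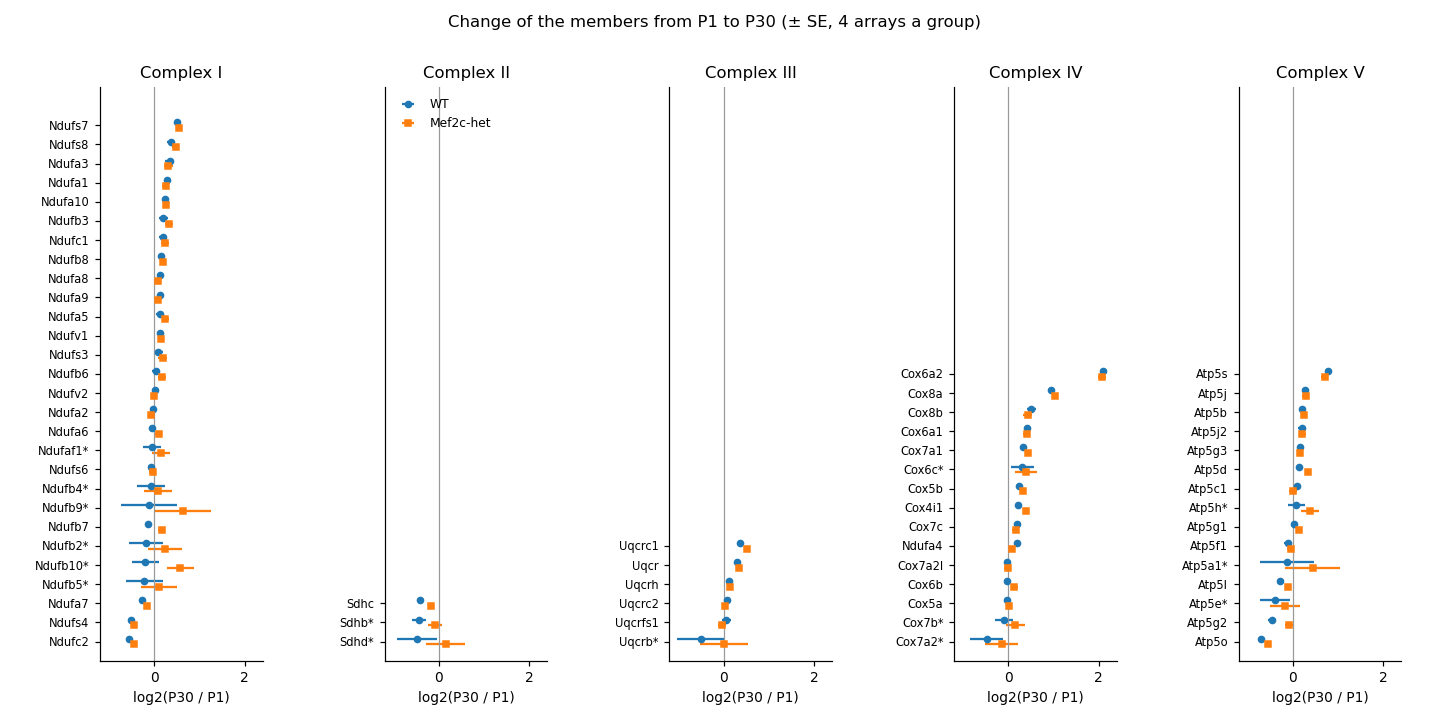
Log2 change from P1 to P30 (horizontal axis) of 67 of the 68 members, listed by complex, in WT (circles) and Mef2c-het mice (squares), with bars for the standard error from limma and 4 arrays a group. Cox6a2 lies farthest to the right, at 2.10 in WT, and the members with an asterisk, whose SD within groups was over 0.2, have the widest bars.

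Promoter letters of 5 members with opposite changes are shown first, since factors known to control respiratory genes read such sequences. They are the 250 bases before the annotated start, 5′ to 3′ on the gene's strand, from RefSeq on GRCm38.p6. Capitals mark whole matches, on either strand, to the NRF1 letters GCATGCGC and the ETS letters CCGGAAG. Cox6a1, Uqcr and Cox8a rose in both genotypes, and Sdhb and Atp5g2 fell in WT. The WT call of Sdhb was lost under several settings, which are given with complex II.
Cox6a1 (chr5:115348959-115349208, minus strand): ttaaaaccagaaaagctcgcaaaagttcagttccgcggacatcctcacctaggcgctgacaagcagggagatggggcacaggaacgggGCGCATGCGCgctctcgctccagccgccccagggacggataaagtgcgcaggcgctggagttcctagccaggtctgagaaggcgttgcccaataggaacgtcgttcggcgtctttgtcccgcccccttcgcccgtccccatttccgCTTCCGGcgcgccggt
Uqcr (chr10:80406822-80407071, minus strand): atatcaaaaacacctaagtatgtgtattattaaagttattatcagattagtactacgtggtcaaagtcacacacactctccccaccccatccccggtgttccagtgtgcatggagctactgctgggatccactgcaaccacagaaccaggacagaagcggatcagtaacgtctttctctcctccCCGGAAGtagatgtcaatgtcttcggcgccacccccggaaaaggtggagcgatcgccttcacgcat
Cox8a (chr19:7217617-7217866, minus strand): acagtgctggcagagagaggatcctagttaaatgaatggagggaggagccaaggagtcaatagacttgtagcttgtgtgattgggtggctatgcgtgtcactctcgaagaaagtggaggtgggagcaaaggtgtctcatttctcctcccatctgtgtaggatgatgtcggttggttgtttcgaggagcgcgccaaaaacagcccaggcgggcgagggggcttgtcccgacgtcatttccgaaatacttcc
Sdhb (chr4:140961021-140961270, plus strand): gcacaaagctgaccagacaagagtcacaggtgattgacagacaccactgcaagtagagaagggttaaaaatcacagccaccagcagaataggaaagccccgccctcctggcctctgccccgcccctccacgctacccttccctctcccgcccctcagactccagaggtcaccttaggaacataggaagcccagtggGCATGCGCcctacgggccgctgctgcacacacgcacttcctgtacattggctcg
Atp5g2 (chr15:102671048-102671297, minus strand): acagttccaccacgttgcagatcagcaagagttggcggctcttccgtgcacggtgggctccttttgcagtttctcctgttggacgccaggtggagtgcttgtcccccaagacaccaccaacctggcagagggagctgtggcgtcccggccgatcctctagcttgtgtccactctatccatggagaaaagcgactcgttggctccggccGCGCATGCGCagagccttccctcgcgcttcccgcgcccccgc
The NRF1 letters overlap their own reverse complement, and in Cox6a1 and Atp5g2 they match on both strands, 162 and 160 bases before the start in Cox6a1 and 42 and 40 in Atp5g2. Sdhb holds them 54 bases before the start. The ETS letters lie 16 bases before the start in Cox6a1 and 66 in Uqcr, and Cox8a holds no whole match in these bases. Cox6a1 and Atp5g2 thus share the NRF1 letters and moved in opposite directions in WT.

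Over the 58 of 68 members found in the RefSeq table, with 250 bases before and 50 after each start, the NRF1 letters were in 8 promoters (13.8%) and in 3.05% of those of all 27025 genes. The ETS letters were in 16 (27.6%, all genes 9.93%), the YY1 letters AANATGGCG in 9 (15.5%, all genes 2.76%), the estrogen-related receptor letters AAGGTCA in 6 (10.3%, all genes 5.38%) and the MEF2 letters TAAAAATAG in 0 (all genes 0.57%). Of the members that rose in WT 4 of 20 held the NRF1 letters, of those that fell 3 of 7 and of the rest 1 of 31. A match describes the letters only and does not show that a factor binds there.

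Complex IV, which hands electrons to oxygen, held the largest rises. Of its 15 members 9 rose and 0 fell in WT, and 7 rose and 0 fell in Mef2c-het mice. Both counts of rises include Cox8b, which met the detection limit only through its P30 arrays. Those rises are 60% and 46.7% of its members, beside 28% and 26.9% of all probes. The shares of all probes that fell were 31.7% and 31.4%. Some of its small subunits exist as a widespread form and as a form best known from heart and skeletal muscle. Cox6a2, the muscle form of subunit VIa, read 7.40, 7.51, 7.48 and 7.41 on the WT arrays of P1 and 9.55, 9.42, 9.69 and 9.55 at P30. In Mef2c-het mice it read 7.38, 7.52, 7.26 and 7.47 at P1 and 9.53, 9.24, 9.60 and 9.54 at P30. Every array of P30 was above every array of P1, by 4.29-fold in WT (log2 2.10 ± 0.082 SE) and 4.21-fold in Mef2c-het mice (2.07 ± 0.082). At P1 it was detected on 4 of 4 WT arrays and 3 of 4 Mef2c-het arrays. Its widespread counterpart Cox6a1 rose less, from 13.59 ± 0.11 (SD, n = 4) to 14.00 ± 0.082 in WT and from 13.59 ± 0.039 to 13.99 ± 0.13 in Mef2c-het mice. A further Cox6a1 probe changed by 0.37 in WT and 0.39 in Mef2c-het mice, beside 0.41 and 0.40 for the first.

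For subunit VIII both forms were higher at P30. Cox8a read 13.48, 13.58, 13.44 and 13.37 in WT at P1 and 14.49, 14.35, 14.39 and 14.45 at P30. The ages did not overlap, and the rise was 1.93-fold in WT (log2 0.95 ± 0.070) and 2.04-fold in Mef2c-het mice (1.03 ± 0.070). Cox8b, its muscle form, was dim, and at P1 it was detected on 1 WT array and 0 Mef2c-het arrays, against 3 and 4 at P30. Its rise was therefore at least 1.30-fold in WT and at least 1.17-fold in Mef2c-het mice, taken against the lowest detected signal of each P1 array where the probe lay under it, and it passed the test in both (limma). Its rise was not ranked against that of Cox8a. Of subunit VIIa, the muscle form Cox7a1 rose from 7.90 ± 0.086 (SD, n = 4) to 8.23 ± 0.090 in WT and from 7.96 ± 0.055 to 8.39 ± 0.12 in Mef2c-het mice. The other form, Cox7a2, read 9.67, 9.89, 10.05 and 9.07 in WT at P1 and 9.88, 9.76, 8.66 and 8.46 at P30. Its ages overlapped, and its change of -0.48 ± 0.36 did not pass the test. In all 3 pairs the muscle form was higher at P30. Cox8b was kept only through its P30 detections, so its direction adds no support to that pattern. Of the other forms Cox6a1 and Cox8a rose while Cox7a2 was not called. Under normexp background correction the changes of the dim forms were larger, at 3.56 in WT and 3.63 in Mef2c-het mice for Cox6a2 and 0.59 and 0.75 for Cox7a1. Among the others, Cox4i1, a subunit through which ATP inhibits the enzyme, rose by 0.22 ± 0.061 in WT and 0.39 ± 0.061 in Mef2c-het mice, and Cox5b by 0.24 ± 0.067 and 0.33 ± 0.067. Under median scaling the WT change of Cox4i1 was 0.11 (limma adjusted p = 0.522). Ndufa4 rose by 0.19 ± 0.058 in WT and was at 0.082 ± 0.058 in Mef2c-het mice, and its WT call was lost under median scaling (0.12, limma adjusted p = 0.427), without the smaller clusters (0.156) and with sex as a covariate (0.0702). Cox5a, Cox6b, Cox7b and Cox7a2l passed in neither genotype, with WT changes of -0.038, -0.031, -0.10 and -0.025.

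**Figure D2:**
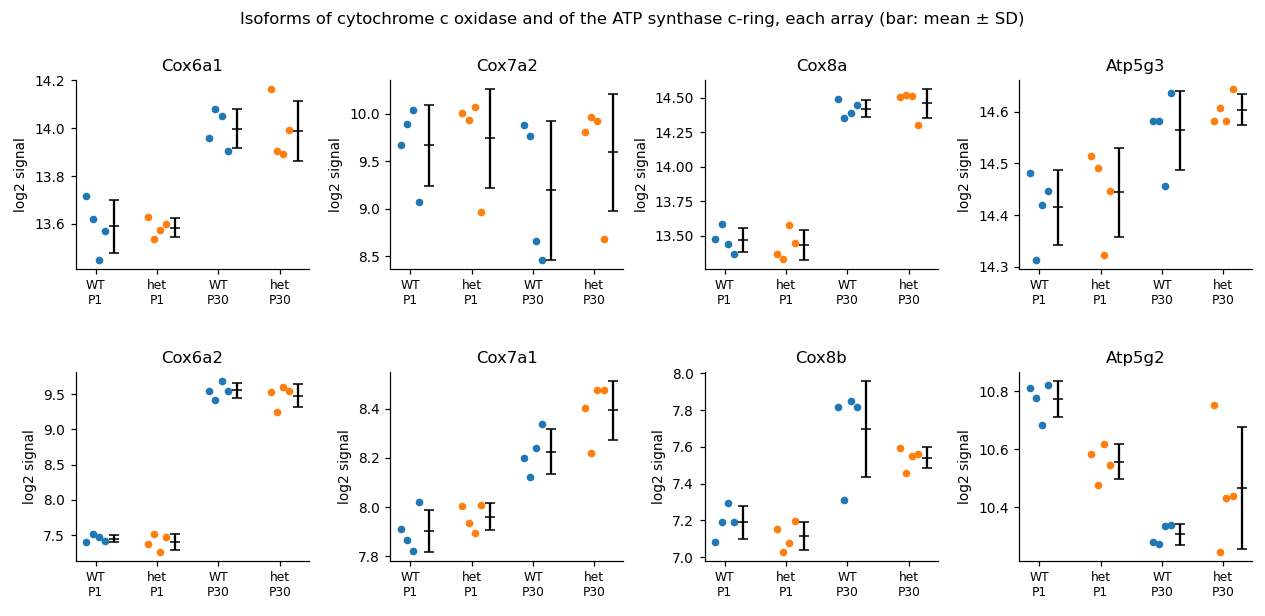
Log2 signal (vertical axis, scaled separately in each panel) of isoforms of complex IV and of the ATP synthase c-ring on each of the 16 arrays, WT in blue and Mef2c-het in orange, with bars for the mean ± SD of 4 arrays. All P30 arrays lie above all P1 arrays for Cox6a1, Cox6a2, Cox7a1 and Cox8a, 7 of the 8 P1 points of Cox8b are not above background, and Cox7a2 has 1 or 2 low arrays in each group.

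Complex I takes electrons from NADH through a catalytic core surrounded by accessory subunits. Of the 6 core subunits 3 rose and 0 fell in WT, and 4 rose and 0 fell in Mef2c-het mice. Among all probes 28% rose and 31.7% fell in WT, and 26.9% and 31.4% in Mef2c-het mice. Ndufs7, which holds the last iron-sulfur cluster before ubiquinone, read 12.36, 12.38, 12.35 and 12.38 in WT at P1 and 12.86, 12.88, 12.94 and 12.84 at P30. The ages lay far apart for their spread, with a rise of 0.51 ± 0.055 in WT and 0.54 ± 0.055 in Mef2c-het mice. Ndufs8, another iron-sulfur protein, rose by 0.37 ± 0.080 and 0.48 ± 0.080. Of the 22 accessory subunits 4 rose and 3 fell in WT, and 7 rose and 3 fell in Mef2c-het mice. Those rises are 18.2% and 31.8% of the accessory subunits, and the falls 13.6% in each genotype. Ndufc2, of the membrane arm, went from 13.02 ± 0.077 (SD, n = 4) to 12.46 ± 0.13 in WT, and it fell by 0.56 ± 0.073 in WT and by 0.45 ± 0.073 in Mef2c-het mice. Ndufs4, a subunit whose loss causes Leigh syndrome, read 12.86, 12.80, 12.82 and 12.91 in WT at P1 and 12.36, 12.29, 12.45 and 12.21 at P30. Every array of P30 was below every array of P1 in both genotypes, with changes of -0.52 ± 0.063 and -0.46 ± 0.063. With all its probes averaged the change in Mef2c-het mice was -0.42 and did not pass (limma adjusted p = 0.147). Ndufa7 was the other accessory subunit to fall in both, by 0.27 ± 0.055 and by 0.16 ± 0.055.

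Complex II, which joins the citric acid cycle to the chain, had 0 rises among 3 members. Of them 2 fell in WT and 1 in Mef2c-het mice. Among all probes 28% rose and 31.7% fell in WT, and 26.9% and 31.4% in Mef2c-het mice. Sdhc, a membrane anchor, read 11.999, 12.12, 11.86 and 11.995 in WT at P1 and 11.43, 11.66, 11.49 and 11.73 at P30. These did not overlap, with a change of -0.41 ± 0.072. In Mef2c-het mice its change of -0.18 ± 0.072 passed at an adjusted p of 0.0402 (limma), and it no longer passed when any of Mef2c-het P1 replicates 1, 2 or 4 or P30 replicates 5, 6 or 7 was left out, with adjusted p up to 0.112. The call was also lost under normexp, median scaling and cyclic loess, without the smaller clusters and with sex as a covariate, with changes of -0.078 (cyclic loess) to -0.19. Sdhb, the iron-sulfur subunit, read 11.69, 11.89, 12.16 and 11.64 in WT at P1 and 11.70, 11.42, 11.20 and 11.26 at P30. The ages overlapped, and its change of -0.45 ± 0.16 (adjusted p 0.0212 by limma) did not pass without WT P1 replicate 5, WT P30 replicate 6 or WT P30 replicate 7, nor under median scaling or cyclic loess, without the smaller clusters or with sex as a covariate (-0.14, adjusted p 0.506). Its other probe, given for the same transcript, changed by -0.24 ± 0.14 in WT and did not pass (limma adjusted p = 0.154). Sdhd, the other anchor, read 7.25 to 7.49 on the arrays of the smaller clusters and 8.40 to 9.17 on the others, and did not pass. Complex III passes electrons to cytochrome c, and 2 of its 6 members rose and 0 fell in each genotype. The rises are 33.3% of its members, near the share of all probes, and the 0 falls stand beside 31.7% and 31.4% of all probes. Uqcrc1, a core protein, rose by 0.37 ± 0.070 in WT and 0.52 ± 0.070 in Mef2c-het mice, and Uqcr, its smallest subunit, by 0.31 ± 0.063 and 0.33 ± 0.063. Uqcrfs1, the Rieske iron-sulfur protein, was detected on 3 of 4 arrays in each group and changed by 0.060 ± 0.093 and -0.035 ± 0.093.

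In ATP synthase 33.3% of the 15 members rose and 20% fell in WT, and 40% rose and 6.67% fell in Mef2c-het mice. Among all probes 28% rose and 31.7% fell in WT, and 26.9% and 31.4% in Mef2c-het mice. Of the 5 members of its F1 head 1 rose in WT and 2 in Mef2c-het mice. Atp5b, the catalytic beta subunit, rose by 0.20 ± 0.059 and 0.25 ± 0.059, and Atp5d, of the central stalk, was at 0.13 ± 0.073 in WT and rose by 0.33 ± 0.073 in Mef2c-het mice. Of the 6 subunits of the outer stalk and membrane part 2 rose and 2 fell in WT, and 2 rose and 1 fell in Mef2c-het mice. Atp5j, coupling factor 6 of that stalk, rose by 0.27 ± 0.075 and 0.28 ± 0.075, and its WT call was lost under median scaling (limma adjusted p = 0.0925) and with sex as a covariate (0.0606). Atp5o, which joins the stalk to the head, read 11.01, 11.08, 10.98 and 10.92 in WT at P1 and 10.36, 10.29, 10.25 and 10.29 at P30. It was 1.63-fold lower at P30 in WT (log2 -0.70 ± 0.060) and 1.46-fold lower in Mef2c-het mice, so that partners in one stalk moved in opposite directions. Atp5l fell by 0.28 ± 0.069 in WT and was at -0.11 ± 0.069 in Mef2c-het mice. The 3 c-ring genes encode the same mature protein behind different import sequences. In WT Atp5g2 read 10.81, 10.78, 10.68 and 10.82 at P1 and 10.28, 10.27, 10.34 and 10.34 at P30. In Mef2c-het mice it read 10.58, 10.48, 10.62 and 10.55 at P1 and 10.75, 10.25, 10.43 and 10.44 at P30. The ages did not overlap in WT, where it was 1.38-fold lower at P30 (-0.47 ± 0.081), and overlapped in Mef2c-het mice through 1 high array (-0.090 ± 0.081). Without that array, P30 replicate 3, the change in Mef2c-het mice was -0.18 (limma adjusted p = 0.0222). Atp5g3 rose by 0.15 ± 0.059 in WT and 0.16 ± 0.059 in Mef2c-het mice, and under median scaling its change was -0.10 and -0.0063. Both calls were also lost under normexp and cyclic loess, without the smaller clusters and with sex as a covariate, and the WT call with WT arrays alone. Leaving out WT P1 replicate 4 or 5 or WT P30 replicate 2, 3 or 7 ended the WT call (limma adjusted p up to 0.126), and leaving out P1 replicate 4 or P30 replicate 5 or 7 that in Mef2c-het mice (up to 0.109). Atp5g1 was at 0.012 ± 0.058 and 0.13 ± 0.058 and passed in neither. Atp5s, a related protein, rose by 0.78 ± 0.081 and 0.70 ± 0.081.

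Cell type markers changed between the ages as well, and their counts stand beside 28% of all probes rising and 31.7% falling in WT. In WT 8 of 8 oligodendrocyte, 7 of 8 astrocyte, 5 of 5 GABAergic, 5 of 7 neuronal and 6 of 8 microglial markers rose, and 2 neuronal markers and 7 of 7 markers of proliferating cells fell. On the P1 arrays alone 5 of 8 oligodendrocyte, 4 of 5 GABAergic and 7 of 8 astrocyte markers met the detection limit. On the P30 arrays alone 4 of 7 proliferation markers did. The remaining markers of these lists were kept through the other age, so the filter partly set their direction. The summed signal of the oligodendrocyte list was 12.88 to 13.39 log2 units over the P1 arrays and 16.40 to 16.63 over the P30 arrays, that of the GABAergic list 12.77 to 13.09 and 14.25 to 14.81, and that of the proliferation list 12.13 to 12.42 and 10.27 to 10.43. Of other tissues 2 of 4 blood markers fell, 2 of 5 endothelial markers rose and 2 fell, and 1 of 4 choroid plexus markers rose, with summed choroid plexus signals of 10.96 to 14.94 and 10.18 to 14.43. In whole tissue fewer cells of a type and less RNA per cell cannot be told apart, and the part of cell composition in the members' changes was not tested.

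Further genes of the pathway were read from 5 lists. Their counts stand beside 28% of all probes rising and 31.7% falling in WT, and 26.9% and 31.4% in Mef2c-het mice. The rises in WT among carriers and partners, assembly factors and regulators were near that share. Of 9 carriers and partners 3 rose and 2 fell in each genotype. Ckmt1, a mitochondrial creatine kinase that moves phosphate energy out to the cytosol, went from 11.14 ± 0.25 (SD, n = 4) to 13.29 ± 0.13 in WT, a rise of 2.15 ± 0.12, and Vdac3, an outer membrane channel, fell by 0.67 ± 0.070. Of 19 assembly factors 5 rose and 1 fell in WT, and 7 rose and 1 fell in Mef2c-het mice. Cox17, a copper chaperone of complex IV, rose by 1.32 ± 0.092 and 1.32 ± 0.092, and Cox19 fell by 0.35 ± 0.061 in WT and by 0.22 ± 0.061 in Mef2c-het mice. Of 2 subunits outside the symbol rule Atp5mpl fell by 0.16 ± 0.063 in WT, which did not pass with the cluster as a block (limma adjusted p = 0.0538), nor under normexp, median scaling or cyclic loess, without the smaller clusters or with sex as a covariate (up to 0.427), and Cyc1 was at 0.062 ± 0.077. Of 67 mitochondrial ribosomal proteins, which make the subunits encoded in mitochondrial DNA, 11 rose and 31 fell in WT, and 12 rose and 24 fell in Mef2c-het mice. Their median changes were -0.17 and -0.11. Mrps12 had the largest rise in WT (0.76 ± 0.19) and Mrpl52 the largest fall (-1.33 ± 0.38). With sex as a covariate neither passed, at 0.58 (limma adjusted p = 0.0589) and -0.75 (0.166). Of 14 regulators 4 rose and 3 fell in WT, and 4 rose and 5 fell in Mef2c-het mice. The coactivator Ppargc1a rose by 0.97 ± 0.14 in WT and 0.69 ± 0.14 in Mef2c-het mice, its relative Ppargc1b by 1.49 ± 0.14 and 1.30 ± 0.14 (1.70 and 1.21 for Ppargc1a and 2.89 and 2.55 for Ppargc1b under normexp), and Esrra, a nuclear receptor they act with, by 0.97 ± 0.11 and 0.98 ± 0.11. Nrf1, an activator of respiratory chain genes, fell by 0.73 ± 0.10 and by 0.89 ± 0.10. Tfam, which packages mitochondrial DNA, was at -0.13 ± 0.10 and -0.018 ± 0.10 and did not pass. In each of the 5 lists 0 genes were called between genotypes at either age, beside 0.00746% of all probes at P30 and 0% at P1.

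Members differed in how steady they were between arrays of one group. The median SD within groups was 0.10 log2 units, and 15 members had one over 0.2 (22.1% of the 68, beside 13.1% of all probes). They were Ndufb2, Ndufb4, Ndufb5, Ndufb9, Ndufb10 and Ndufaf1 of complex I, Sdhb and Sdhd of complex II, Uqcrb of complex III, Cox6c, Cox7a2 and Cox7b of complex IV, and Atp5a1, Atp5e and Atp5h of complex V. These values chose the 15, so what follows describes them without a test. Sdhb was just inside the limit at 0.25 and Ndufs3 just outside at 0.15. The deviations of the 15 from the group means had a median pairwise r of 0.92 over the 16 arrays, against 0.18 among the other 53. Low-end signal and cluster belong to a whole array and are shared by all genes on it. Ndufb9, of the complex I membrane arm, varied most. In WT it read 9.42, 9.95, 9.97 and 8.01 at P1 and 10.19, 10.16, 8.51 and 8.004 at P30. In Mef2c-het mice it read 9.40, 9.63, 9.75 and 7.77 at P1 and 9.85, 10.39, 10.58 and 8.25 at P30. The 5 low values, 7.77 to 8.51, were those of the smaller clusters, and the other 11 arrays lay at 9.40 to 10.58. Atp5a1, the alpha subunit of the F1 head, read 8.73 to 9.03 on the same 5 arrays and from 10 up to 11.27 on the others, and Uqcrb, which lies by the ubiquinone site of complex III, 9.68 to 9.88 and 11.12 to 11.75. Of the 68 members 13 were lower on all 5 arrays than on any other (19.1%, all probes 5.38%). Atp5c1, the gamma subunit, was the member higher on all 5 (1.47%, all probes 0.731%). Of the 15 only Cox6c and Sdhb overlapped between the 5 arrays and the others. Over the 11 arrays alone the median SD of the 15 was 0.22. The 15 were counted under quantile normalization. Background correction by normexp gave 18 members over the limit, cyclic loess 15 and median scaling 25.

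**Figure D3:**
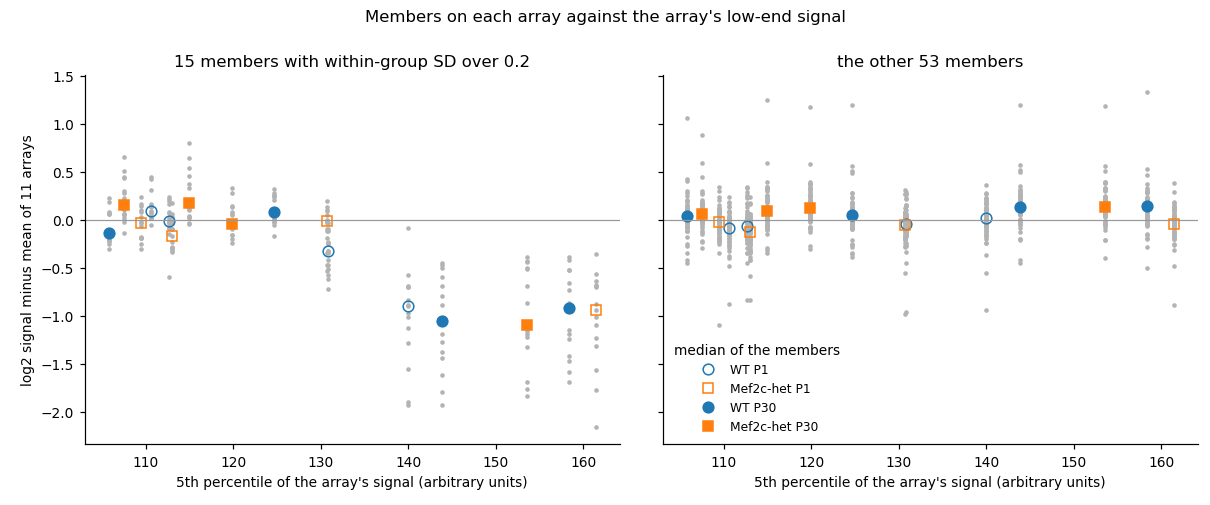
Log2 signal of each member less its mean over the 11 arrays of the larger clusters (vertical axis) against the 5th percentile of signal of the array (horizontal axis, arbitrary units). Grey points are members and large symbols their median on an array. On the 5 arrays at 140.0 units and above, 13 of the 15 members of the left panel lie below their level on every other array, Cox6c and Sdhb overlap with them, and the median of the other 53 in the right panel stays near 0 on all 16.

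Genes with several probes allowed the same RNA to be read more than once. Of 10 members with at least 2 passing probes 5 had all probes under an SD of 0.2, Sdhb had all over it, and 4 had probes on both sides. The probe used for Ndufa5, an accessory subunit of complex I, read 12.71 to 13.02 on those 5 arrays and 12.51 to 12.95 on the others. Its other probe, which the table gives for the same transcript, read 7.39 to 7.60 on those 5 arrays and 8.42 to 9.50 on the others. The first probe therefore held its level where the other was low on all 5. Within Ndufs4 the probe used had an SD of 0.078 and the other 3 had 0.37, 0.48 and 0.73. The corresponding values were 0.092 and 0.68 for Atp5l, whose probes the table gives for different transcripts. The change of Ndufs4 with age in WT was -0.52 ± 0.063 by the probe used, and -0.62 ± 0.23, -0.70 ± 0.30 and -0.71 ± 0.45 by the others, of which the first passed (limma adjusted p = 0.0300). In Mef2c-het mice none of those 3 passed, with changes of -0.34, -0.49 and -0.41 (limma adjusted p = 0.223, 0.178 and 0.470). All were negative, and the error was smallest for the steady probe. The table gives no probe position or sequence, and what sets a steady probe apart from a variable one was not tested.

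**Figure D4:**
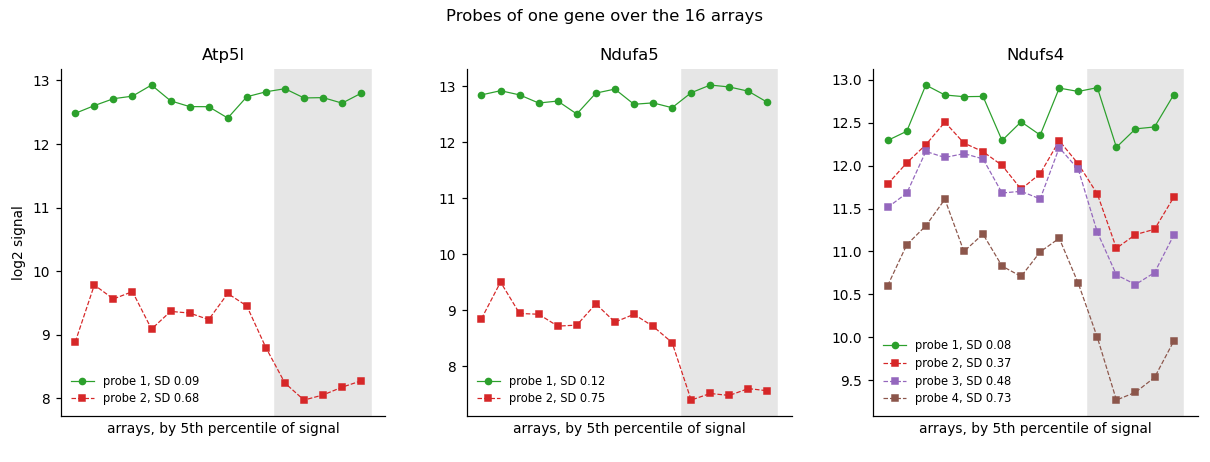
Log2 signal (vertical axis) of each passing probe of Atp5l, Ndufa5 and Ndufs4 on the 16 arrays, ordered by their 5th percentile of signal (horizontal axis), with the 5 arrays of the smaller clusters shaded. Circles are the probe used for the gene and squares its other probes. In each of these genes the squares are lower on each shaded array than on any other, while the circles overlap between shaded and other arrays.

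Between genotypes 0 members passed the adjusted threshold at either age. At P30 0 of 68 were called (limma, Benjamini-Hochberg over 13413 probes, of which 0.00746% were called), and 2 had an unadjusted p under 0.05, beside 2.36% of all probes. That number was 11 without Mef2c-het P30 replicate 7 (10.3% of all probes), 7 with the cluster as a block (4.26%), and 0 to 3 without any other array. At P1 0 of 67 were called beside 0% of 13566 probes, and 2 had an unadjusted p under 0.05, beside 1.62%. For how far the genotype effect at P30 departed from that at P1, 0 of 68 were called beside 0% of 14777 probes, and 3 had an unadjusted p under 0.05, beside 2.96%. The median difference of the members was 0.054 at P30 and -0.0082 at P1, beside -0.011 and 0.0015 for all probes. At P30 53 of 68 members were higher in Mef2c-het mice, beside 6029 of 13413 probes. At P1 it was 28 of 67, beside 6879 of 13566 probes. Members share their arrays, so these counts are no test. The SE of a single member had a median of 0.077 at each age, which is not the error of the medians.

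At P30 2 members had groups that did not overlap, where 1.75% of all probes did. Ndufb7, an accessory subunit of complex I, read 9.53, 9.31, 9.52 and 9.55 in WT and 9.68, 9.55, 9.80 and 9.59 in Mef2c-het mice, with the 8 arrays of the age normalized alone. It was higher by 0.18 in Mef2c-het mice (95% interval 0.0021 to 0.36, limma adjusted p = 0.976, exact permutation p = 0.0286). That exact p is the smallest that 4 against 4 arrays can give, and every member whose groups do not overlap gets it. Since such members were picked for that lack of overlap, it is no further test. Cox5a, of the matrix side of complex IV, read 13.52, 13.49, 13.47 and 13.45 in WT and 13.60, 13.53, 13.63 and 13.57 in Mef2c-het mice, a difference of 0.10 (-0.023 to 0.22). Atp5o had the smallest unadjusted p, with a difference of 0.15 (0.0086 to 0.28), and its groups overlapped. At P1 2 other members had groups that did not overlap, where 1.29% of all probes did. Atp5g2, whose promoter letters are printed above, read 10.85, 10.81, 10.72 and 10.86 in WT and 10.62, 10.52, 10.66 and 10.59 in Mef2c-het mice. It was lower in Mef2c-het mice, with a difference of -0.21 (-0.36 to -0.070, limma adjusted p = 1.00, exact permutation p = 0.0286, again fixed by the lack of overlap). Cox4i1 read 14.01, 14.13, 14.03 and 14.05 in WT and 13.94, 13.93, 13.96 and 13.94 in Mef2c-het mice, a difference of -0.11 (-0.24 to 0.021). Under median scaling 0 members had separate groups at either age, and under cyclic loess 0 at P30 and 2 at P1. Leaving out 1 array, which leaves fewer values to overlap, gave 2 to 10 such members at P30, where 2.74% to 9.35% of all probes did. There were 10 without Mef2c-het replicate 7 (all probes 9.35%), 6 without Mef2c-het replicate 5 (3.82%), 5 without WT replicate 3 (3.97%) and 4 without WT replicate 2 or 7 (4.74% and 3.17%). At P1 it gave 2 to 6, where 2.1% to 4.5% of all probes did. There were 6 without Mef2c-het replicate 4 (3.42%) or WT replicate 5 (4.5%) and 4 without replicate 8 of Mef2c-het (3.25%) or WT mice (4.46%). The difference between the ages was 0.38 ± 0.12 for Atp5g2, 0.29 ± 0.10 for Ndufb7 and 0.23 ± 0.10 for Sdhc, each with a limma adjusted p of 0.998.

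The 15 variable members stood higher than the other 53 at P30 in the difference between genotypes. All 15 had a higher mean in Mef2c-het mice, with a median difference of 0.40 and a range of 0.16 to 0.59, and the median of the other 53 was 0.038. At that age 2 of 4 WT arrays and 1 of 4 Mef2c-het arrays were of the smaller cluster. With the cluster as a block the median of the 15 was 0.079 and that of the other 53 was 0.044. Without its arrays these medians were 0.13 and 0.074. All 15 stayed higher in Mef2c-het mice in both settings, by 0.018 to 0.38 and by 0.0031 to 0.55. The part of the cluster in this difference was not tested. At P1, where each genotype had 1 such array, 7 of the 15 were higher in Mef2c-het mice and 8 lower. The change with age of the 15 differed in sign between the genotypes in the same way. In WT, with 1 array of the smaller clusters at P1 and 2 at P30, 13 of the 15 had a negative change, and in Mef2c-het mice, with 1 and 1, 12 of the 15 had a positive one. With the cluster as a block 9 of the 15 were positive in WT. Ndufb10, a subunit of the membrane arm named after its values were seen, had a difference of 0.59 ± 0.29 at P30 and -0.19 ± 0.26 at P1 on all arrays, and of 0.55 ± 0.16 and -0.40 ± 0.12 on the 11 arrays (limma adjusted p = 0.985 and 1.00). On those arrays 22 of 68 members had groups that did not overlap at P30, beside 19.5% of all probes, and 6 of 67 at P1, beside 6.98%.

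**Figure D5:**
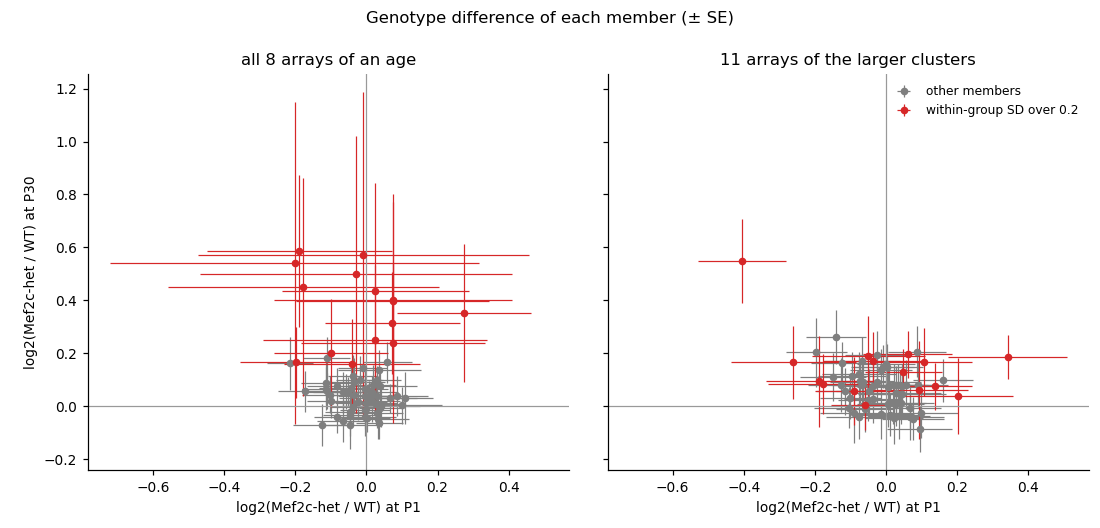
Log2 difference between Mef2c-het and WT mice at P1 (horizontal axis) and P30 (vertical axis) of the members tested at both ages, with standard errors, on all 8 arrays of an age (left) and on the 11 arrays of the larger clusters (right). The 15 variable members, in red, lie at 0.16 to 0.59 on the vertical axis in the left panel and mostly among the others in the right panel, where Ndufb10 stands apart.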

How the data were processed

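Hippocampal RNA was isolated with Trizol and a miRNeasy kit, and biotinylated cRNA was hybridised to Illumina MouseRef-8 v2 beadchips. The table deposited by the authors holds, for 25697 probes and 16 arrays, the mean bead intensity, not normalized between arrays, and a detection p-value set by the negative controls. Its other deposited columns are probe annotation, bead numbers and bead errors. Scanner software and background handling are not given in the sources used here. The labels name limma and lumi, and the study's methods state a log2 transformation and quantile normalization, which were followed here.

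Intensities were log2 transformed and quantile normalized, over all 16 arrays for changes with age and over the 8 arrays of an age for genotype. A probe was kept where its detection p lay under 0.05 on 4 or more arrays of the fit, and was tested with limma 3.58.1 in R 4.3.3 (two-sided, Benjamini-Hochberg over all probes tested, threshold 0.05). Per array the members' median bead number was 37 to 41, and the bead standard error 3.17% to 4.23% of the signal. The number of arrays limits the precision. Single genotype differences were also given a two-sided exact permutation test over arrays. Array clusters came from average linkage on 1 minus the correlation within an age, cut into 2. The limit of 0.2 on the SD within groups, pooled over the 4 groups, was chosen after the values were seen.

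The genes named were the isoforms, the 2 largest rises and falls of each complex in WT among those past the threshold, any past it between genotypes with the 3 of smallest p in each direction whose genotype groups did not overlap, the 3 of smallest p for the change between the ages, and the largest rise and fall of each further list with Ppargc1a, Esrra, Nrf1, Tfam and, as a check of the labels, Mef2c. The result of 1 gene that this rule names is not reported here. Other genes named beside these were chosen after their values were seen. The members and all lists were chosen with earlier results of these data known. Alternatives were normexp correction (offset 16), median scaling, cyclic loess, other detection filters, averaged probes, other variance models, clusters or sex in the model, the replicate number as a block and leaving out each array. In simulated data 100 probes were changed at each size, whereas in the real arrays 8818 of 14777 probes were called for age in WT. On the simulated data the fits recovered 78% of changes of 0.5 and 95% of changes of 1 on the log2 scale for age in WT. Recovery was 66% and 92% for genotype at P30, and 45% and 91% for how far the P30 genotype effect departs from that at P1. These rates need not hold where many more probes change, or where noise is shared between probes as in the array clusters.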

Additional observations from a re-analysis of the deposited data

Results flagged for a closer look

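In groups of 4 arrays, single arrays stood far from the other 3 by Dixon's test in 9 of 112 groups tested, over 27 members and their mean, where chance gives about 1 in 20. Atp5g1 was highest on the Mef2c-het P30 replicate 5 array, at 13.195 against 13.159 to 13.162. Cox4i1 was lowest on the WT P30 replicate 7 array, at 14.13 against 14.28 to 14.31. Cox7a2 was lowest on the Mef2c-het P1 replicate 8 array, at 8.97 against 9.93 to 10.07. Cox7a2 was lowest on the Mef2c-het P30 replicate 7 array, at 8.68 against 9.81 to 9.96. Cox7b was lowest on the Mef2c-het P30 replicate 7 array, at 7.77 against 8.38 to 8.49. Cox8a was lowest on the Mef2c-het P30 replicate 7 array, at 14.30 against 14.50 to 14.52. Cox8b was lowest on the WT P30 replicate 3 array, at 7.31 against 7.82 to 7.85. Ndufb7 was lowest on the WT P30 replicate 3 array, at 9.35 against 9.57 to 9.60. The mean of the members was lowest on the Mef2c-het P30 replicate 7 array, at 11.76 log2 units against 11.97 to 12.002 on the others. Of the 9 values 6 lay on arrays of the smaller clusters and 4 on Mef2c-het P30 replicate 7, the part of which was not tested.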

How the results depend on the processing

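Each choice was changed in turn. Of the counts and medians recomputed 318 stayed within the limits set and 35 moved. Of the values of single genes 1610 kept sign and side of the threshold, 52 lost and 3 gained a call and 41 turned sign. A turn of sign was scored for single genes only. The median genotype difference at P1, near 0, did turn, to 0.0026 without Mef2c-het P1 replicate 2 and to 0.0019 with the replicate number as a block. The number of rises in WT was 12 under median scaling, and the number of falls 5 under cyclic loess. The number of falls in Mef2c-het mice was 3 under normexp, median scaling and cyclic loess and without the arrays of the smaller clusters. The median change of the members in WT was 0.029 under median scaling, 0.13 under cyclic loess, 0.11 with the cluster as a block, 0.12 without the smaller clusters and 0.17 with sex as a covariate, and in Mef2c-het mice 0.23 under cyclic loess and 0.23 with sex. Under median scaling the median genotype difference was 0.10 at P30 and that of its change between the ages 0.13, 0 members had separate groups at either age (0 at P30 also under cyclic loess), and 25 members had an SD over 0.2 and 21 were lower on all 5 arrays. Those last 2 alternatives were chosen after seeing the data. Without the smaller clusters 22 members had separate groups at P30 and 6 at P1. Leaving out 1 array at a time gave 19 to 26 rises, 7 to 8 falls and a median of 0.056 to 0.10 in WT, and 22 to 29 rises, 3 to 6 falls and a median of 0.15 to 0.21 in Mef2c-het mice. It gave genotype medians of 0.038 to 0.067 at P30 and -0.030 to 0.0026 at P1, separate groups for 2 to 10 and 2 to 6 members (all probes 2.74% to 9.35% and 2.1% to 4.5%), and 0.048 to 0.10 for the change between the ages. In each of these genotype fits 0 members were called. Of the changes with age that turned sign, Atp5g3 alone had passed the test in the reported fit. Those under median scaling were in WT Atp5g1 -0.022, Atp5g3 -0.10, and in Mef2c-het mice Atp5g3 -0.0063, Cox7a2l 0.00051, Atp5mpl 0.00047. Under cyclic loess they were in WT Atp5g3 -0.0071, Cox6b 0.030, Cox7a2l 0.10, and in Mef2c-het mice Cox7a2l 0.10, Sdhb 0.016, Atp5mpl 0.064, Tfam 0.039. With sex as a covariate they were in WT Atp5g1 -0.0019, Cox7a2 0.032, Cox7a2l 0.033, Cox7b 0.27, Tfam 0.021, and in Mef2c-het mice Cox7a2 0.19, Cox7a2l 0.027, Sdhb 0.12, Atp5mpl 0.016, Tfam 0.081. With the cluster as a block they were in WT Atp5g1 -0.0017, Cox7b 0.052. Without the smaller clusters they were in WT Atp5g1 -0.016, Cox7b 0.050, and in Mef2c-het mice Atp5mpl 0.0010. With 1 array left out, the ranges were in WT Atp5g1 -0.031 to 0.047 (turned without WT P1 replicate 4 or WT P1 replicate 5 or WT P30 replicate 7), Cox6b -0.076 to 0.0075 (turned without WT P1 replicate 1), Cox7a2l -0.063 to 0.028 (turned without WT P30 replicate 2 or WT P1 replicate 4), Cox7b -0.25 to 0.015 (turned without WT P1 replicate 5 or WT P30 replicate 6). In Mef2c-het mice they were Cox7a2 -0.41 to 0.16 (turned without Mef2c-het P30 replicate 7), Cox7a2l -0.068 to 0.016 (turned without Mef2c-het P30 replicate 3 or Mef2c-het P1 replicate 4 or Mef2c-het P30 replicate 6), Sdhb -0.17 to 0.015 (turned without Mef2c-het P1 replicate 1 or Mef2c-het P30 replicate 7). Whether the replicate numbers pair WT and Mef2c-het samples is not known. Deviations of same-numbered arrays correlated from -0.52 to 0.82, and not every array correlated best with its own number. The highest values, 0.82 for replicate 8 at P1 and 0.70 for replicate 7 at P30, join arrays of the smaller clusters. These correlations follow the clusters and so cannot decide the question. With the replicate number as a block 0 members were called, and the medians were 0.044 at P30, 0.0019 at P1 and 0.060 for the change between the ages, with 0, 3 and 0 of all probes called. Chip as a block was not run, since the sources used here name no chip. With 4 arrays a group and dim probes such as Cox8b near the negative controls, small differences were not detectable. The causes of these shifts were not tested.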
